A study of Mus musculus with 9 samples.

Results

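Creatine kinases and the genes of creatine supply were followed in hearts of E18.5 mouse embryos. The set holds 7 genes, taken by name from the 24571 usable gene symbols of the expression table: the creatine kinases *Ckm*, *Ckb*, *Ckmt1* and *Ckmt2*, the creatine transporter *Slc6a8*, and the synthesis enzymes *Gatm* and *Gamt*. Hearts came from C57BL/6N embryos that were wild type, heterozygous (*Ctcf* +/R567W) or homozygous (*Ctcf* R567W/R567W) for a substitution in the chromatin protein CTCF, introduced into the germline with CRISPR/Cas9, with 3 RNA-seq libraries per genotype and no other treatment. The allele was not restricted to the heart, so other organs of the mutant embryos carried it too. Nothing in the labels says whether libraries of one genotype came from different litters, and the p-values below measure the spread between these libraries.

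Creatine kinase moves phosphate between ATP and creatine. A cytosolic form at the sites of ATP use and a mitochondrial form at the sites of ATP production are linked by phosphocreatine, which buffers ATP in muscle. *Ckm* and *Ckb* encode the muscle and brain subunits of the cytosolic enzyme, and *Ckmt2* and *Ckmt1* the sarcomeric and ubiquitous mitochondrial forms. As striated muscle matures the muscle subunit and the sarcomeric mitochondrial form become predominant over the brain subunit, so their ratio is used as a reading of maturation. For creatine synthesis, mainly in kidney and liver, Gatm acts on arginine and glycine, and Gamt methylates the product to creatine. The heart takes creatine up from blood through Slc6a8.

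The 7 genes lie on 6 chromosomes. In the GENCODE M21 annotation (mm10), *Ckm* spans chr7:19404776-19422841 on the plus strand and *Ckb* chr12:111669361-111672338 on the minus strand. *Ckmt1* (chr2:121357714-121363737, plus) and *Gatm* (chr2:122594467-122611303, minus) share a chromosome. *Ckmt2* lies at chr13:91853387-91876885 on the minus strand, *Slc6a8* at chrX:73673150-73682502 on the plus strand and *Gamt* at chr10:80258151-80261012 on the minus strand. TPM values cover all exons of a gene, untranslated regions included. An antisense gene, *A930016O22Rik*, overlaps *Ckm* and was listed at 0.38 to 2.39 TPM, and *Strc*, which overlaps *Ckmt1* on the opposite strand, at 0 to 0.07 TPM. The use of strand in the counting is not given in the sources used here, so reads in such overlaps cannot be told apart. Of the 31-base words of *Ckb* transcripts, 17.5% also occur in other genes, 16.6% in *Gm12892*, which was listed at no more than 0.24 TPM. For the other 6 genes at most 0.618% of words are shared.

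RefSeq promoter windows (GRCm38.p6, 250 bases before to 50 after the start site) were found for 6 of the 7 genes, not for *Slc6a8*. The windows of the 3 abundant kinases are shown because their ratios are the maturation reading below. Capitals mark E-boxes (CANNTG, bound by myogenic and other helix-loop-helix factors), TATA boxes (TATAAA or TATATA) and CCAAT boxes, on either strand.
*Ckm* (chr7:19410844-19411143, plus): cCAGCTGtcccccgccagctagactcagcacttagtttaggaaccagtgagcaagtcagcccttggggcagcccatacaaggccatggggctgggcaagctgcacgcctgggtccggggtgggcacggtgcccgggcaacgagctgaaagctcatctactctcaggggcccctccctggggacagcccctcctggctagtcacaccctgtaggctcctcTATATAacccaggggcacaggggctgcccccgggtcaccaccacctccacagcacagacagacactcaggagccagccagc
*Ckb* (chr12:111672289-111672588, minus): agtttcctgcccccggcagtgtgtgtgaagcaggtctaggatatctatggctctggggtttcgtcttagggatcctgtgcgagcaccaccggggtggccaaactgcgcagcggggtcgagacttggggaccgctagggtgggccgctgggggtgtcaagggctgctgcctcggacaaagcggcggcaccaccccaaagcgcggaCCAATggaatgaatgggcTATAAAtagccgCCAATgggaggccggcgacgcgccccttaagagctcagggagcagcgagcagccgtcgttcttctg
*Ckmt2* (chr13:91876836-91877135, minus): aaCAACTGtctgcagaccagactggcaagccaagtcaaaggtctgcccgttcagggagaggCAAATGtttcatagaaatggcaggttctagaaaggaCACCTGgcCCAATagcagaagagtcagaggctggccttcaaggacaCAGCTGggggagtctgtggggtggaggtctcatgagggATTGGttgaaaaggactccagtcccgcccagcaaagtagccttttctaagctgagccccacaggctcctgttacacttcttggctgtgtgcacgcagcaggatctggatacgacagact

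*Ckm* and *Ckb* each have a TATA box just before the start site, TATATA in *Ckm* and TATAAA in *Ckb*. Of the mitochondrial kinases, 1 of the 2 *Ckmt1* windows also has a TATAAA match there. No match of either kind was found in *Ckmt2*. A TATAAA match occurs in 13.6% and a TATATA match in 5.67% of the 32851 promoter windows in the table. The *Ckmt2* window holds 4 E-boxes, the *Ckm* window 1 and the *Ckb* window 0, against 72.3% of all windows with at least 1. *Gatm*, *Gamt* and 1 of the 2 *Ckmt1* windows hold 1 each. Pairs of CCAAT boxes stand in *Ckb*, *Ckmt2* and *Gatm*, and 1 of the 2 *Ckmt1* windows has 1. Of all windows 37.4% have at least 1, and the share with 2 was not computed. The TATA box of *Ckb* overlaps a match to the MEF2 site, found in 3.19% of windows. The core of the CTCF motif had no match in the 7 windows of the 6 genes, against 2.43% of all windows, and CTCF binding further away was not analysed here. The GC box (GGGCGG) occurs 4 times in *Gamt* and 1 time in *Ckmt2* (35.7% of all windows have it), the half-site AAGGTCA of estrogen-related receptors 1 time in 1 of the 2 *Ckmt1* windows (4.72%), and the CArG box in none of the 7 (1.63%). A match is a run of letters and does not show that a factor binds there.

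TPM is a length-corrected abundance scaled to a common total, so levels can be set side by side between genes, while the number of reads behind them is unknown. Within the 9 libraries the order of the mean levels was *Ckm* (1250 TPM, rank 79 of all genes), *Ckb* (200.04 TPM, rank 479), *Ckmt2* (184 TPM, rank 519), *Slc6a8* (56.7 TPM, rank 1724), *Gamt* (17.2 TPM, rank 5336), *Gatm* (3.53 TPM, rank 10896) and *Ckmt1* (1.49 TPM, rank 12845). Among neighbours in this order, the ranges of *Ckb* (145 to 257 TPM) and *Ckmt2* (144 to 221 TPM) overlapped, as did those of *Gatm* (2.30 to 4.83 TPM) and *Ckmt1* (0.71 to 2.48 TPM), while the other neighbours were apart. *Ckm*, *Ckb*, *Ckmt2* and the transporter were thus above both synthesis enzymes, and the fourth kinase, *Ckmt1*, was below them in mean level. All 7 genes exceeded a mean of 1 TPM and were tested, *Gatm* and *Ckmt1* being those nearest to this minimum.

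Some libraries held markers of other organs. Summed thymocyte markers (12 genes) reached 582 TPM in homozygous replicate 3 and at most 2.78 TPM elsewhere, and thymic epithelium markers (7 genes) 134 TPM there against at most 45.6 TPM. Airway and lung markers (10 genes) summed to 2625 TPM in replicate 1 of the wild type, to 1109 TPM in heterozygous replicate 1 and to at most 52.3 TPM elsewhere. Liver markers (11 genes) reached 4090 TPM in heterozygous replicate 1 and 168 TPM at most elsewhere. The 8 cardiomyocyte markers were all present, with sums between 32695 TPM (homozygous replicate 3) and 45131 TPM. By *Xist* and Y-linked transcripts the heterozygous embryos were all female, and the other groups held both sexes.

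**Figure D1:**
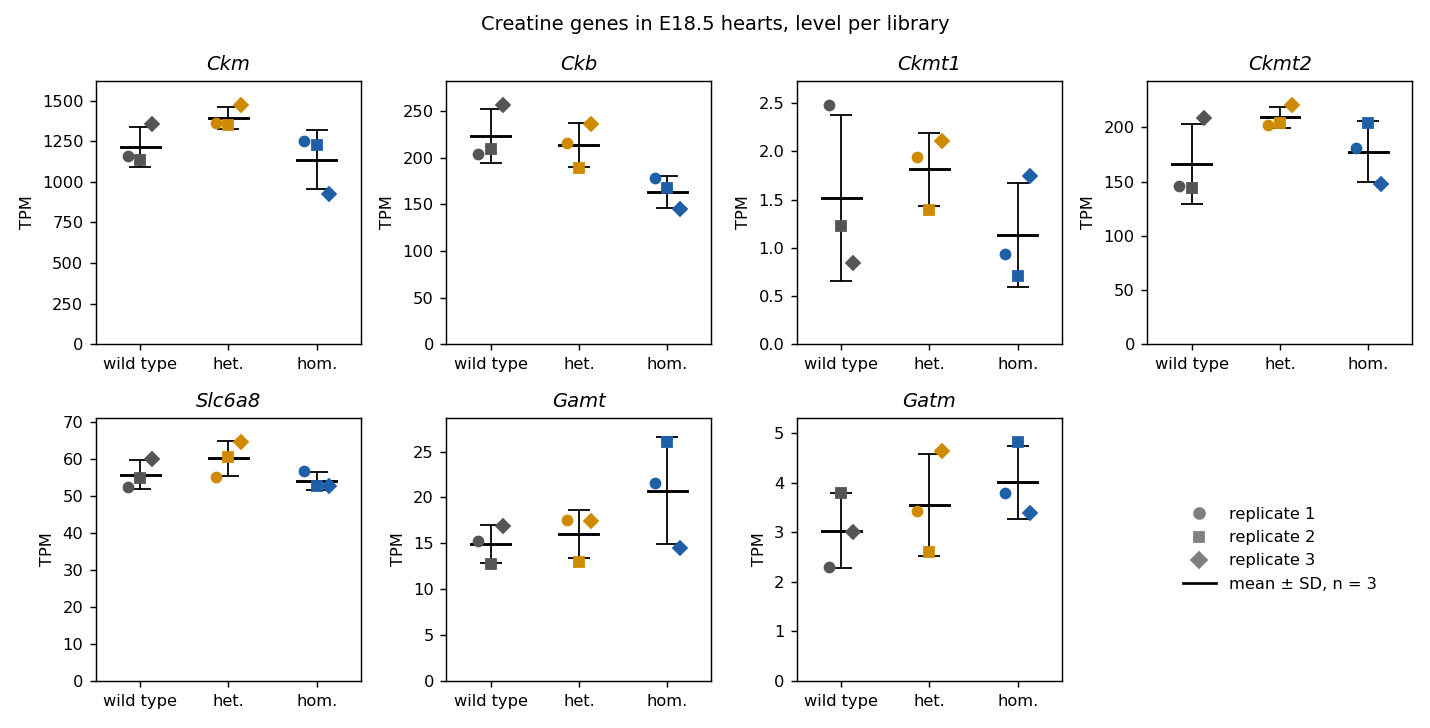
Level of each creatine gene in TPM (vertical axes, from 0) in wild-type, heterozygous (het.) and homozygous (hom.) hearts; each point is 1 library, bars are the mean and SD of 3. The homozygous points of *Ckb* lie below all wild-type and heterozygous points, and *Ckmt1* is near 1 TPM with widely spread libraries.

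*Ckb*, the brain subunit, was the member with the lowest log2 change of homozygous against wild-type hearts. Wild-type libraries gave 204, 209 and 257 TPM, heterozygous libraries 215, 189 and 236 TPM, and homozygous libraries 178, 167 and 145 TPM. The homozygous libraries were all below the other 6, whereas wild-type and heterozygous libraries overlapped. The mean ± SD of 3 libraries was 223 ± 29.1 TPM for the wild type, 213 ± 23.7 TPM for heterozygotes and 163 ± 17.2 TPM for homozygotes. The homozygous mean was 0.732 of the wild-type mean. On the scale of log2(TPM + 1), *Ckb* differed by -0.45 (SE 0.13, 95% interval -0.73 to -0.16) between homozygous and wild-type hearts, which did not pass the threshold after adjustment over all genes (limma adjusted p = 0.116). The difference was -0.38 against heterozygous hearts (limma adjusted p = 0.643). Heterozygous hearts differed from wild type by -0.06 (adjusted p = 0.859).

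Whether *Ckb* passed the threshold depended on how libraries were scaled and weighted. Over all 13682 tested genes the median log2 change of homozygous against wild-type hearts was 0.23, and 81.7% of genes were above 0. The *Ckb* change minus this median was -0.68, and 3.12% of genes had a lower change. After median-ratio scaling the change was -0.70 (limma adjusted p = 0.00295), with 1.74% of all genes passing, and after quantile normalisation it was -0.51 (adjusted p = 0.0253), with 0.519% passing. In all 23 alternative settings *Ckb* was lower in homozygous hearts, with log2 changes of -0.70 to -0.30, and it passed the threshold in 3, the third being arrayWeights (-0.30, adjusted p = 0.0406), where 37.0% of all genes passed. Without the 3 libraries with organ markers its change was -0.42 (adjusted p = 0.192).

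**Figure D2:**
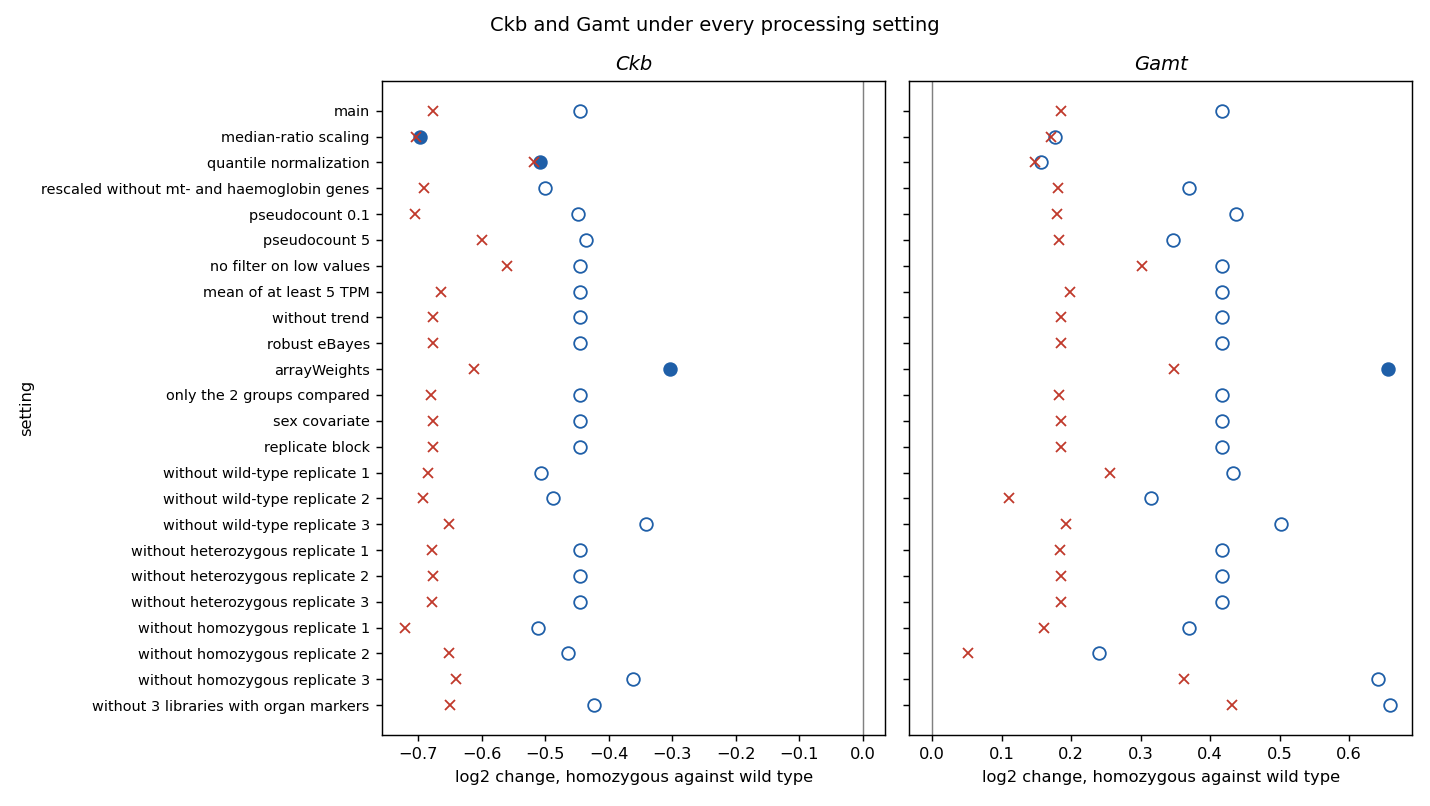
Log2 change of TPM between homozygous and wild-type hearts (horizontal axes) for *Ckb* and *Gamt* in the main fit and 23 alternative settings (rows); circles are the change, filled where the limma adjusted p is under 0.05, and crosses the change minus the median of all tested genes. *Ckb* lies below 0 in every setting, filled in 3, and *Gamt* above 0, filled in 1.

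Smooth muscle markers were lower in homozygous hearts, as *Ckb* was. Summed smooth muscle markers (5 genes) ranged over 606 to 707 TPM for wild-type libraries, 494 to 704 TPM for heterozygous and 341 to 546 TPM for homozygous ones, without overlap between homozygous and wild-type libraries, and all 5 genes reached 1 TPM in every library. In homozygous replicates 1, 2 and 3 they summed to 546, 341 and 417 TPM, and cardiomyocyte markers to 42358, 38338 and 32695 TPM. Only the latter had the order of *Ckb* there, while both sums had it within the wild-type and heterozygous groups. *Ckb* is also expressed in smooth muscle and in neurons, and neuron and glia markers (9 genes) summed to 6.41 to 12.2 TPM in the 9 libraries, with the groups overlapping. Skeletal muscle markers (9 genes) summed to 11.8 to 28.3 TPM, and the groups overlapped. Per 1000 TPM of cardiomyocyte markers, a scale added after the values were seen, *Ckb* was 5.29 in wild-type and 4.33 in homozygous hearts. These values did not overlap, with a log2 difference of -0.29. How many of all genes were without overlap on this scale was not computed. In whole hearts, fewer cells of a type and less RNA per cell cannot be told apart, and the part of smooth muscle in the *Ckb* level was not tested.

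*Ckm*, the muscle subunit, was highest in heterozygous hearts. Wild-type libraries gave 1160, 1134 and 1359 TPM, heterozygous libraries 1362, 1352 and 1474 TPM, and homozygous libraries 1254, 1228 and 927 TPM. Homozygous replicate 3, the library with thymocyte markers and the lowest cardiomyocyte markers, was the lowest of the 9. The mean ± SD of 3 libraries was 1218 ± 123 TPM for the wild type, 1396 ± 67.7 TPM for heterozygotes and 1136 ± 182 TPM for homozygotes. Homozygous and wild-type libraries overlapped, with a log2 change of -0.11 (95% interval -0.39 to 0.17, limma adjusted p = 0.580), and without homozygous replicate 3 the change was 0.03. All homozygous libraries were below the heterozygous ones, with a change of -0.31 (95% interval -0.59 to -0.03) that did not pass the adjusted threshold (limma adjusted p = 0.680). The change was 0.20 in heterozygous against wild-type hearts (adjusted p = 0.672). Per 1000 TPM of cardiomyocyte markers *Ckm* was 28.9 in wild-type, 32.4 in heterozygous and 30.0 in homozygous hearts. Homozygous and heterozygous values then overlapped, whereas heterozygous and wild-type values, which overlapped in TPM, did not. Here too the share of all genes without overlap on this scale was not computed.

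*Ckmt2*, the sarcomeric mitochondrial kinase, was highest in heterozygous hearts, as *Ckm* was. Wild-type libraries gave 146, 144 and 209 TPM, heterozygous libraries 203, 204 and 221 TPM, and homozygous libraries 181, 204 and 148 TPM. Heterozygous libraries were close together, and wild-type replicate 3 lay among them. The mean ± SD of 3 libraries was 166 ± 36.9 TPM for the wild type, 209 ± 10 TPM for heterozygotes and 178 ± 28.3 TPM for homozygotes. Its log2 change was 0.35 between heterozygous and wild-type hearts (SE 0.16, 95% interval -0.01 to 0.71, limma adjusted p = 0.672), 0.10 between homozygous and wild-type hearts (95% interval -0.25 to 0.46, adjusted p = 0.684) and -0.25 between homozygous and heterozygous hearts (adjusted p = 0.776). The sign of the homozygous change was not stable, as it was -0.15 after median-ratio scaling.

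*Ckmt1*, the ubiquitous mitochondrial kinase, was near the lowest level tested. Wild-type libraries gave 2.48, 1.23 and 0.84 TPM, heterozygous libraries 1.94, 1.39 and 2.11 TPM, and homozygous libraries 0.94, 0.71 and 1.74 TPM. The groups overlapped in all comparisons, and the spread within wild-type hearts was larger than the differences between means. The log2 change of homozygous against wild-type hearts was -0.22, with a wide 95% interval of -0.88 to 0.45 (limma adjusted p = 0.645). Its change was 0.20 in heterozygous against wild-type hearts (adjusted p = 0.804) and -0.42 between homozygous and heterozygous hearts (adjusted p = 0.784). The log2(TPM + 1) scale understates changes at this level.

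*Slc6a8*, the plasma membrane creatine transporter, had the narrowest range of the 7 genes in proportion to its level. Wild-type libraries gave 52.4, 54.9 and 60.1 TPM, heterozygous libraries 55.2, 60.6 and 64.7 TPM, and homozygous libraries 56.8, 52.7 and 52.7 TPM. The genotypes overlapped, and the mean ± SD of 3 libraries was 55.8 ± 3.92 TPM for the wild type, 60.2 ± 4.78 TPM for heterozygotes and 54.05 ± 2.35 TPM for homozygotes. The 95% interval of the log2 change of homozygous against wild-type hearts ran from -0.28 to 0.19 around -0.04 (limma adjusted p = 0.804), and the changes were -0.15 against heterozygous hearts and 0.11 in heterozygous against wild-type hearts (adjusted p = 0.784 and 0.735). Although the gene is X-linked, the 5 female libraries (52.4 to 64.7 TPM) overlapped the 4 male libraries (52.7 to 60.1 TPM).

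*Gamt*, the methyltransferase of the second synthesis step, had the highest log2 change of the 7 genes between homozygous and wild-type hearts. Wild-type libraries gave 15.2, 12.8 and 16.9 TPM, heterozygous libraries 17.5, 13.0 and 17.5 TPM, and homozygous libraries 21.6, 26.1 and 14.5 TPM. Homozygous replicates 1 and 2 were above the other 7 libraries, and replicate 3 lay among the wild-type values. The mean ± SD of 3 libraries was 14.9 ± 2.05 TPM for the wild type, 16.0 ± 2.61 TPM for heterozygotes and 20.7 ± 5.85 TPM for homozygotes, and the log2 change of homozygous against wild-type hearts was 0.42 (SE 0.21, 95% interval -0.05 to 0.88, limma adjusted p = 0.233). Relative to the median of all genes it was 0.19. It passed the threshold with arrayWeights, which gives each library a weight by its fit (0.66, adjusted p = 0.0164), a setting in which 37.0% of all tested genes passed (5068 genes, 4811 of them higher). It was 0.24 without homozygous replicate 2, 0.64 without replicate 3 and 0.66 without the 3 libraries with organ markers (adjusted p = 0.174). Per 1000 TPM of cardiomyocyte markers *Gamt* was 0.355 in wild-type, 0.370 in heterozygous and 0.545 in homozygous hearts, and homozygous values then did not overlap the others. For homozygous replicate 3, within the wild-type range in TPM, this came with the lowest divisor of the 9 libraries (32695 TPM). The share of all genes without overlap on this scale was not computed. In TPM it was 24.7% against wild type and 15.9% against heterozygous hearts. Markers of other heart cells shared their lowest library with *Gamt* in the mutant groups, but not in the wild type. Summed fibroblast markers (4 genes) were 562, 614 and 721 TPM across wild-type libraries, 772, 545 and 848 TPM across heterozygous and 905, 908 and 413 TPM across homozygous ones. Endothelial markers (4 genes) gave 260, 307 and 179 TPM across homozygous libraries and 170 to 262 TPM across the other 6, and macrophage markers (4 genes) gave 19.0, 21.8 and 14.7 TPM against 10.4 to 15.7 TPM. Homozygous replicate 3 and heterozygous replicate 2 were each the lowest of their group in *Gamt* and in all 3 sums. In the wild type *Gamt* was lowest in replicate 2. The fibroblast and endothelial sums were lowest there in replicate 1, and the macrophage sum in replicate 3. The part of these cells in the *Gamt* level was not tested. The change was 0.33 against heterozygous hearts and 0.09 in heterozygous against wild-type hearts (adjusted p = 0.776 and 0.884).

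*Gatm*, the amidinotransferase of the first step, was low in all libraries. Wild-type libraries gave 2.30, 3.80 and 3.00 TPM, heterozygous libraries 3.43, 2.60 and 4.64 TPM, and homozygous libraries 3.80, 4.83 and 3.39 TPM. The groups overlapped, and the mean ± SD of 3 libraries was 3.03 ± 0.751 TPM for the wild type, 3.56 ± 1.03 TPM for heterozygotes and 4.01 ± 0.742 TPM for homozygotes. Its log2 change of homozygous against wild-type hearts was 0.32 (SE 0.22, 95% interval -0.18 to 0.81, limma adjusted p = 0.367), which was 0.09 above the median of all genes. The other changes were 0.15 between homozygous and heterozygous hearts and 0.17 in heterozygous against wild-type hearts (adjusted p = 0.906 and 0.786).

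Across the set, 0 of the 7 genes passed a limma adjusted p of 0.05 in any comparison. Between homozygous and wild-type hearts 0.336% of all tested genes passed (46 genes, 26 of them higher), and 238 with 39 higher after median-ratio scaling. At an unadjusted p under 0.05 the count was 1 of 7 (*Ckb*) against 25.0% of all genes, and the groups were without overlap at 1 of 7 against 24.7% of all genes. Between homozygous and heterozygous hearts 0.0439% of genes passed, 2 of the 7 (*Ckb* and *Ckm*) had an unadjusted p under 0.05 against 7.15%, and the same 2 were without overlap against 15.9%. Between heterozygous and wild-type hearts 0.0146% passed, and 0 of the 7 had an unadjusted p under 0.05 or were without overlap, against 6.87% and 13.8%. These comparisons share libraries and are not independent of each other.

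The set lay below the general displacement in homozygous hearts. Its median log2 change was -0.04 between homozygous and wild-type hearts, where that of all genes was 0.23, and 5 of 7 genes were below the latter. Against heterozygous hearts the medians were -0.25 and 0.08, and between heterozygous and wild-type hearts 0.17 and 0.15. In the main fit *Gamt* and *Gatm* were above the median of all genes in homozygous hearts in both comparisons. The 4 kinases and the transporter were below it in both. For *Gatm* and *Ckmt2* this depended on the setting. Relative to that median *Gatm* was at -0.053 with arrayWeights against wild type and at -0.053 with the sex covariate against heterozygous hearts. *Ckmt2* was at 0.027 against wild type after quantile normalisation.

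**Figure D3:**
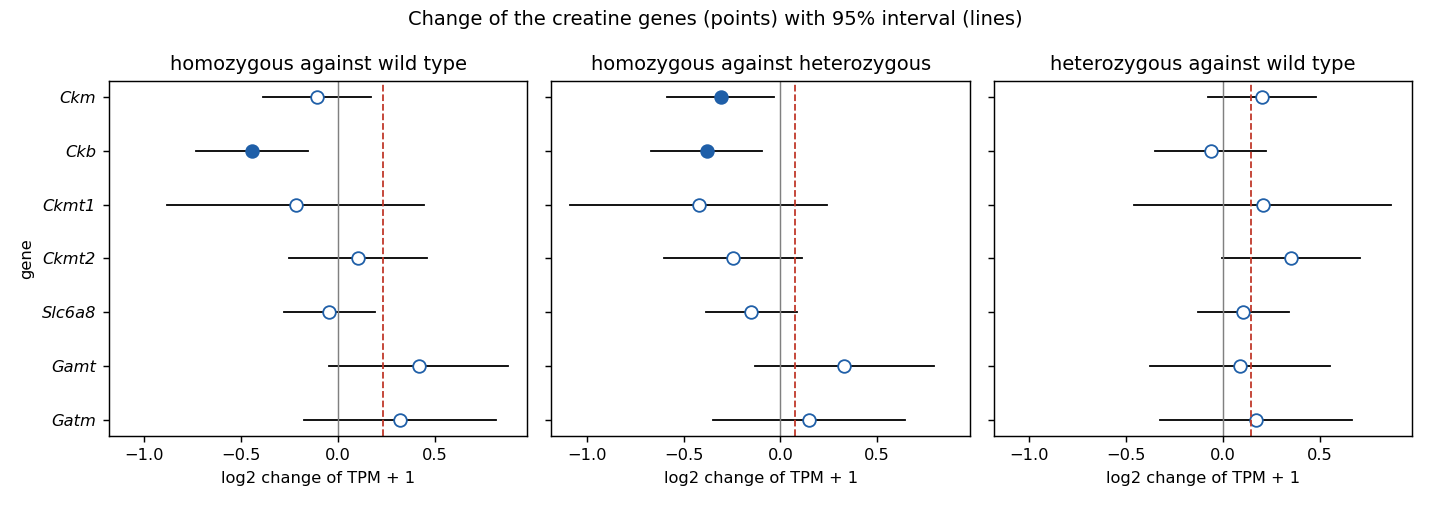
Log2 change of TPM + 1 (horizontal axes) of the 7 genes (rows) in the 3 comparisons, with the 95% interval from limma as a line; filled points mark groups without overlap, the grey line is 0 and the dashed line the median of all 13682 tested genes (0.23, 0.08 and 0.15 from left to right). *Ckb* lies left of 0 with its interval in both comparisons of homozygous hearts.

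The isoform ratios compared genes within a library, so that multiplying all values of a library by 1 factor leaves them as they are. The ratio of *Ckm* to *Ckb* was 5.69, 5.41 and 5.30 in wild-type hearts, 6.32, 7.17 and 6.25 in heterozygous hearts and 7.02, 7.35 and 6.41 in homozygous hearts. Both mutant genotypes were above wild type in every library and overlapped each other. The mean ± SD of 3 libraries was 5.47 ± 0.204 for the wild type, 6.58 ± 0.513 for heterozygotes and 6.93 ± 0.478 for homozygotes. The ratio was 1.27-fold higher in homozygous and 1.201-fold higher in heterozygous than in wild-type hearts, and exact permutation gave a two-sided p = 0.1 for both, the lowest possible with 3 against 3 libraries (0.6 after adjustment over the 12 ratio tests). No mutant library had a ratio of muscle to brain kinase below the wild-type range. Without the 3 libraries with organ markers the log2 differences of 0.34 and 0.26 became 0.42 and 0.32.

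As background for this ratio, added after the values were seen, both kinases were set against all other genes. When each of 13346 other tested genes was set over *Ckb*, 78.9% gave a ratio higher without overlap in homozygous than in wild-type hearts, and 35.7% did so in heterozygous hearts. When *Ckm* was set over each of those genes, 1.27% gave a higher ratio without overlap in homozygous hearts and 9.79% in heterozygous hearts. These shares follow from where the changes of *Ckb* and *Ckm* against wild type lay among all genes. In homozygous hearts 3.12% and 10.7% of genes were lower, and in heterozygous hearts 11.3% and 63.0%. The shares are no further evidence of a change in either kinase.

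As shares of all creatine kinase transcripts, *Ckb* made up 13.9% ± 0.342 in wild-type, 11.7% ± 0.782 in heterozygous and 11.1% ± 0.703 in homozygous hearts (SD, n = 3 each). *Ckm* made up 75.8% ± 1.18, 76.7% ± 0.629 and 76.8% ± 0.880, and *Ckmt2* 10.3% ± 1.03, 11.5% ± 0.175 and 12.0% ± 0.771. *Ckmt1* was below 0.164% of the total in each library. All kinase transcripts together reached 1609 ± 188 TPM for the wild type, 1820 ± 98.9 TPM for heterozygous and 1479 ± 223 TPM for homozygous hearts. The highest *Ckb* share of a mutant library was 12.2% and the lowest of a wild-type library 13.5%.

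*Ckb* and *Ckmt2* exchanged places in the order of levels. Their ratio, *Ckmt2* over *Ckb*, was 0.717, 0.687 and 0.814 in wild-type hearts, 0.940, 1.08 and 0.935 in heterozygous hearts and 1.01, 1.22 and 1.02 in homozygous hearts. *Ckb* was thus above *Ckmt2* in all wild-type libraries and below it in all homozygous ones, and heterozygous libraries fell on both sides. This ratio was chosen after the values were seen and is given without a test. A higher ratio to *Ckb* without overlap was common among the other tested genes. It was found for 78.9% of them in homozygous and for 35.7% in heterozygous hearts, each against wild type.

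The other ratios overlapped between the genotypes in every comparison. *Ckmt2* over *Ckm*, mitochondrial to cytosolic muscle kinase, was 0.136 ± 0.0157 in wild-type, 0.150 ± 0.00113 in heterozygous and 0.157 ± 0.0111 in homozygous hearts (SD, n = 3 each; exact permutation p = 0.2 for homozygous against wild type). *Ckmt2* over *Ckmt1* ranged from 58.9 to 287 over the libraries, with *Ckmt1*, its denominator, near 1 TPM (exact permutation p = 0.6). *Gatm* over *Gamt* was 0.209 ± 0.0779, 0.221 ± 0.0392 and 0.198 ± 0.0312 (exact permutation p = 0.9). Adjusted over the 12 ratio tests, these exact p-values were 0.686, 0.80 and 0.982.

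Maturation pairs outside the creatine system, given as a description, did not all move the same way. The adult to fetal myosin ratio, *Myh6* over *Myh7*, was 0.959 ± 0.0321 in wild-type and 0.728 ± 0.0671 in homozygous hearts, without overlap. The muscle to liver form of the fatty acid carrier enzyme, *Cpt1b* over *Cpt1a*, was 8.41 ± 0.697 and 6.11 ± 0.815, also without overlap. Both were lower in homozygous hearts, while *Cox6a2* over *Cox6a1*, the muscle to general form of a respiratory chain subunit, was higher without overlap (0.726 ± 0.0172 and 0.833 ± 0.0833). *Tnni3* over *Tnni1* was 1.36 ± 0.0605 and 1.25 ± 0.0414, *Cox7a1* over *Cox7a2* 1.12 ± 0.156 and 1.51 ± 0.303, and *Cox8b* over *Cox8a* 0.596 ± 0.0473 and 0.623 ± 0.0730 (SD, n = 3 each), with overlap for these 3 pairs. In heterozygous hearts each of these 6 pairs overlapped wild type, whereas *Ckm* over *Ckb* did not. The share of all gene pairs without overlap was not computed. Of single genes, 24.7% were without overlap between homozygous and wild-type hearts, and 13.8% between heterozygous and wild-type hearts.

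**Figure D4:**
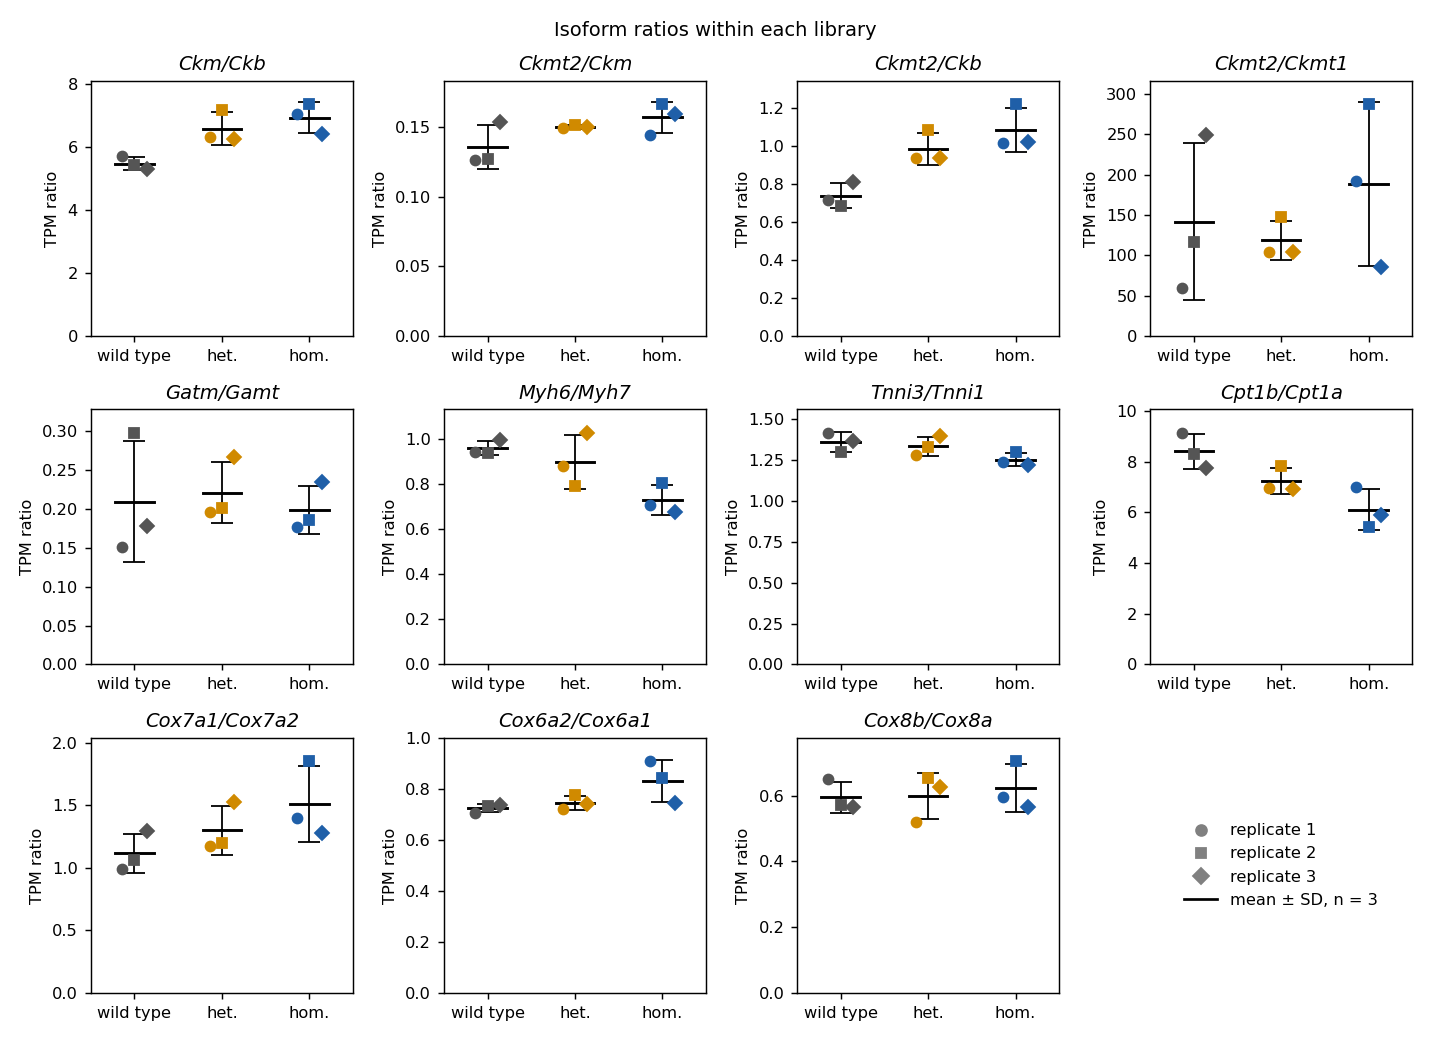
Ratios of TPM within each library (vertical axes, from 0) in wild-type, heterozygous (het.) and homozygous (hom.) hearts; each point is 1 library, bars are the mean and SD of 3. *Ckm* over *Ckb* and *Ckmt2* over *Ckb* are higher in both mutant groups, and *Myh6* over *Myh7* and *Cpt1b* over *Cpt1a* are lower in homozygous hearts.

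Genes around the creatine system were read from 6 lists, and 0 of their tested members passed the adjusted threshold in any comparison. Of all genes 0.336% passed between homozygous and wild-type hearts. The share was 0.0439% between homozygous and heterozygous hearts and 0.0146% between heterozygous and wild-type hearts. With shares this low, a count of 0 says little about the lists. The 6 mitochondrial carriers and channels for ATP, ADP or phosphate had a median log2 change of 0.00 between homozygous and wild-type hearts. They ran from *Slc25a4* (-0.15, limma adjusted p = 0.417) to *Slc25a3* (0.06, adjusted p = 0.727). Adenylate kinases and AMP enzymes (11 of 13 tested) had a median of 0.09, with *Adssl1*, a muscle enzyme of purine nucleotide cycling, at -0.40 (adjusted p = 0.168) and the nucleotidase *Nt5c1a* at 0.61 (adjusted p = 0.204). These medians lay below the 0.23 of all genes.

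The 7 subunits of AMPK, the kinase that senses AMP, had a median of 0.31, from *Prkag3* (-0.27, limma adjusted p = 0.466) to *Prkab1* (0.48, adjusted p = 0.151). Creatine precursor and methyl supply (13 of 16 tested) had a median of 0.21, with *Asl*, which makes arginine, at -0.36 (adjusted p = 0.147). M-band and related anchors of the muscle kinase (3 of 4 tested) had a median of 0.02, from *Myom2* (-0.18, adjusted p = 0.502) to *Myom1* (0.10, adjusted p = 0.638). Regulators of muscle kinase genes (9 of 11 tested) had a median of 0.29, with the mitochondrial coactivators *Ppargc1a* at 0.50 (adjusted p = 0.203) and *Ppargc1b* at -0.13 (adjusted p = 0.719).

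The members did not vary as 1 block. Over the 9 libraries, Pearson r of log2(TPM + 1) was 0.84 between *Ckm* and *Ckmt2*, 0.75 between *Ckm* and *Slc6a8*, 0.73 between *Ckm* and *Ckb* and 0.41 between *Ckb* and *Ckmt2*. *Gamt* and *Gatm* had an r of 0.60 with each other. With *Ckmt2* their r was 0.46 and 0.33, with *Ckm* 0.24 and 0.13, and with *Ckb* -0.15 and -0.11. Points in these correlations share the library composition, which also moves with genotype, and they are given as a description.

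Genes with the most similar pattern differed between the kinases. For *Ckb* they were *Aldh4a1* (r = 0.98), the troponin C gene *Tnnc1* (0.98) and the cardiac fatty acid binding protein gene *Fabp3* (0.97), and for *Ckm* the ATP synthase gene *Atp5g3* (0.98), *Mfge8* (0.97) and the hexokinase gene *Hk2* (0.97). For *Ckmt2* they were *Atf7* (0.97), *Ywhah* (0.97) and *9430016H08Rik* (0.97), and for *Slc6a8* *Iqgap3* (0.96), *Ehbp1l1* (0.94) and *Clip1* (0.94). *Gamt* was most similar to *Bambi* (0.99), *Mxra8* (0.98) and *Gng11* (0.98), *Gatm* to *Rnf115* (0.95), *Hnrnpr* (0.94) and *Actl6a* (0.94), and *Ckmt1*, near 1 TPM, to *Mrps30* (0.88), *1810044D09Rik* (0.86) and *Chchd6* (0.85). These are the highest correlations among tested genes whose mean reached 5 TPM, over 9 libraries each.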

How the data were processed

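The authors sequenced poly-A RNA of E18.5 hearts, trimmed reads with Trim Galore, aligned them to mm10 with STAR and quantified genes with RSEM, per the labels and the study's methods. The annotation release and strand setting are not given in the sources used here. The deposited table holds TPM per gene and library for 24597 symbols, made by the authors. TPM keeps no depth, so counting error is unknown.

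Here 26 symbols turned into dates were left out. Genes whose mean reached 1 TPM (13682) were fitted as log2(TPM + 1) with limma (v3.58.1, R v4.3.3) in 1 model of 3 genotype means over 9 libraries (eBayes with trend, two-sided, Benjamini-Hochberg over all tested genes, threshold 0.05). The study's DESeq2 test needs counts and was not run. Ratios were compared within libraries by exact permutation. The fit was tested on simulated data. Alternatives changed scaling, pseudocount, filter, variance model, sex covariate, replicate block and libraries. The 7 genes, the lists and the named genes (highest and lowest change per list, 3 most correlated genes per member) were chosen with earlier results of these data known. A result that this naming rule would include is not reported here.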

Additional observations from a re-analysis of the deposited data

How the results depend on the processing

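The number of the 7 genes passing the threshold between homozygous and wild-type hearts was 0, but 1 after median-ratio scaling and 1 after quantile normalisation (*Ckb* in both), and 2 with arrayWeights (*Ckb* at -0.30, adjusted p = 0.0406, and *Gamt*). In the other comparisons it stayed 0 in all 23 settings. With the replicate block it was 0 in each comparison, the *Ckb* change was -0.45 (adjusted p = 0.145) and the exact p of the *Ckm* to *Ckb* ratio was 0.25 for homozygous against wild type, the smallest that 3 pairs allow. Deviations of same-numbered libraries correlated between -0.03 and 0.36, highest between wild-type and heterozygous replicates 1 (0.36) and 3 (0.30). Not every pair passed 0.1 and the labels tie no number to a litter or batch, so the numbers were not taken as a pairing. Over all genes 46 passed between homozygous and wild-type hearts, 238 after median-ratio scaling (39 higher, against 26 of 46), 71 after quantile normalisation, 77 after rescaling, 63 without the trend, 64 with robust eBayes, 22 without a filter, 31 with a pseudocount of 5, 17 with 2 groups or the replicate block, 5068 with arrayWeights, 2161 without wild-type replicate 3 and 279 without homozygous replicate 3. The cause of these shifts was not tested.

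Signs that turned belonged to changes that did not pass the threshold. Between homozygous and wild-type hearts these were *Ckm* with arrayWeights (0.0664), *Slc6a8* with arrayWeights (0.0086) and *Ckmt2* after median-ratio scaling (-0.15). Between homozygous and heterozygous hearts *Gatm* was -0.0117 with the sex covariate. Between heterozygous and wild-type hearts *Ckb* was 0.0082 with arrayWeights, *Ckmt1* -0.0029 with the sex covariate, *Slc6a8* -0.0583 and -0.003 and *Gamt* -0.0697 and -0.0809 after median-ratio scaling and quantile normalisation, and log2 *Ckmt2* over *Ckmt1* was 0.15 from TPM + 1 and 0.13 after quantile normalisation. Leaving out 1 library at a time gave, between homozygous and wild-type hearts, ranges of -0.19 to 0.0317 for *Ckm*, -0.42 to 0.043 for *Ckmt1*, -0.0014 to 0.28 for *Ckmt2*, -0.087 to 0.0099 for *Slc6a8*, -0.0257 to 1.01 for log2 *Ckmt2* over *Ckmt1* and -0.23 to 0.26 for log2 *Gatm* over *Gamt*. *Gatm* ranged from -0.0079 to 0.32 between homozygous and heterozygous hearts. Between heterozygous and wild-type hearts *Ckb* ranged from -0.14 to 0.0403, *Gamt* from -0.0145 to 0.22, log2 *Ckmt2* over *Ckmt1* from -0.54 to 0.50 and log2 *Gatm* over *Gamt* from -0.0752 to 0.41. The log2 *Ckm* to *Ckb* ratio kept its sign in every setting in which ratios were recomputed, between 0.30 and 0.43 for homozygous against wild type. These settings were TPM + 1, quantile normalisation, the replicate block and libraries left out. Neither the sex covariate nor arrayWeights was applied to ratios. All heterozygous embryos were female, and the part of sex in the ratio was not tested. With 3 libraries per genotype and no read depth, the intervals in the text are the measure of precision.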
